A study of Mus musculus with 6 samples.

Results

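The splicing factor and hnRNP genes described here are the 65 of 12968 genes in the deposited table whose symbols begin with Hnrnp, with Srsf and a digit, with Sf3a or Sf3b, with Snrp, or with Prpf and a digit. They comprised 20 hnRNP genes, 11 SR genes and 34 genes of small nuclear ribonucleoprotein particles (snRNPs), of which 12 were named Snrp, 9 Sf3 and 13 Prpf. All 65 passed the filter on low values and were tested. The RNA came from the middle section of the left brain hemisphere of 6 mice, precipitated with RiboTag, a tagged ribosomal protein (Rpl22) that is switched on by Cre recombinase. In 3 animals (MCAO 1 to 3) the middle cerebral artery had been occluded for 1 h and the animals were killed 3 days later, while 3 control animals (control 1 to 3) had no occlusion. The series title names the astrocyte transcriptome. Cre driver, strain, age and sex are not stated in the labels, and no sham operation is described. Without input RNA, a change in message level and a change in ribosome occupancy cannot be told apart. In bulk RNA, fewer cells of a type and less RNA per cell cannot be told apart either.

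Introns are removed from pre-mRNA by the spliceosome, which is assembled on each intron from snRNPs. Each of the main particles consists of a small nuclear RNA with a ring of Sm proteins, or of the related LSm proteins in the U6 particle, and its own particle proteins: the U1 particle binds the start of the intron, the U2 particle with its SF3a and SF3b complexes binds the branch point, and the tri-snRNP with the Prp proteins brings in the catalytic core. SR proteins bind exons and recruit these particles, whereas hnRNP proteins coat the pre-mRNA, often oppose SR proteins, and also act in export, localisation and translation of mRNA. Values are scaled reads: the reads of a gene over a factor common to its library. A positive log2 change means a higher level after MCAO, taken from log2(value + 1), and is given with the moderated standard error (SE) of limma, and a gene is said to have risen or fallen where its Benjamini-Hochberg adjusted p over the 12549 genes tested was under 0.05.

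Recovered reads per library ranged from 882263 in MCAO 2 to 9519548 in control 1, and the least covered member had 3 reads in MCAO 2 and in control 2 against 85 in control 1. Control 2 and MCAO 2 were the shallowest library of each group. Markers of several cell types moved between the groups. Of 11 microglia markers 8 rose, with sums between 587 and 772 scaled reads in the control libraries and between 2162 and 2866 in the MCAO libraries. Of 8 oligodendrocyte markers 4 rose, of 6 tested markers of dividing cells 4 rose, and all 6 markers of striatal neurons fell. The 10 general neuron markers had a median log2 change of -0.01, with sums between 20391 and 25385 without and between 20718 and 23045 with occlusion. Of 10 astrocyte markers 1 rose, with sums of 24168 to 38748 and 28391 to 37707. The part of these cell types in the values below was not tested.

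Most splicing genes had small changes in ribosome-bound RNA, and 1 was called. Of 65 members, Snrpb2 alone rose and 0 fell in limma, where 3.08% of all tested genes were called, 2.30% higher and 0.789% lower. On recovered reads edgeR and DESeq2 called the same 1 member, against 4.14% and 4.37% of all tested genes. An unadjusted p under 0.05 was reached by 6 members, against 19.3% of all tested genes. The log2 change was under 0.5 in size in 60 of the 65 members, against 77.6% of tested genes. Groups did not overlap in 10 members, 8 of them higher after MCAO and 2 lower, where 24.9% of tested genes were so parted, 12.4% higher and 12.5% lower. Summed over the members, controls held 15596 ± 485 scaled reads and MCAO libraries 16529 ± 350 (SD, n = 3 in either group). Their median log2 change was 0.05, beside a median of -0.01 for all tested genes. The plot of log2 changes by family shows the members with their intervals.

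**Figure D1:**
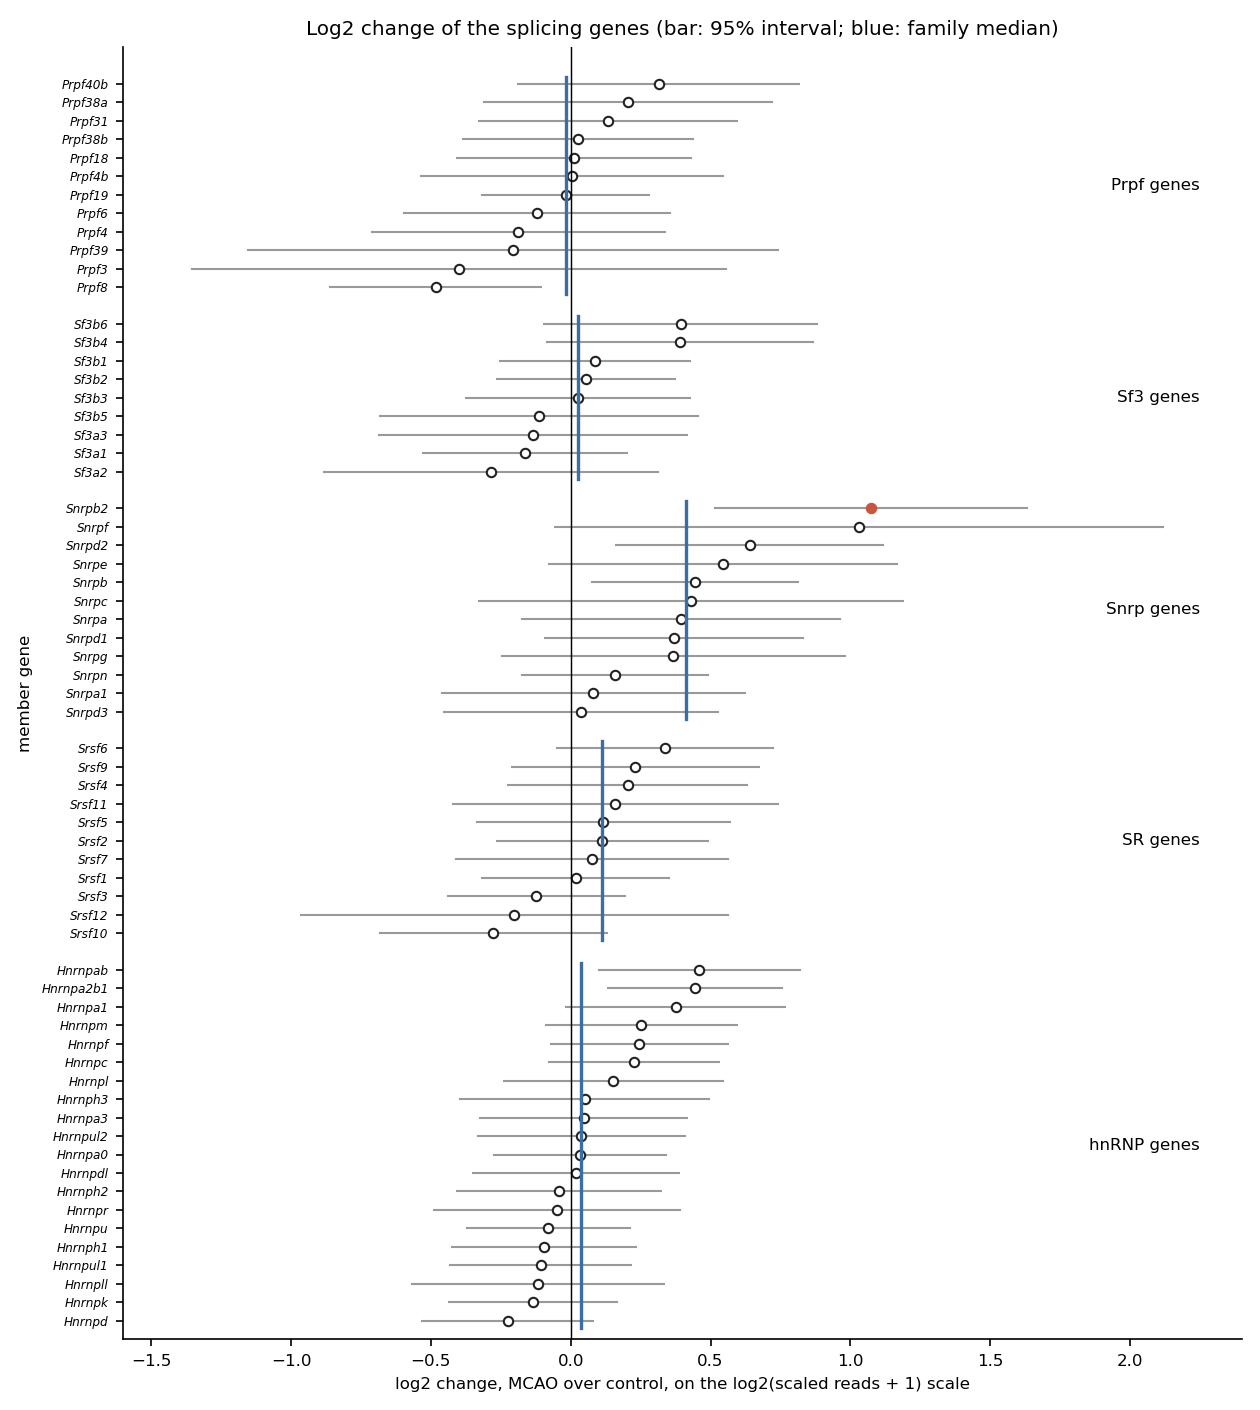
Log2 change of the member genes but 1 (vertical axis, grouped by family) between MCAO and control on the log2(scaled reads + 1) scale (horizontal axis). Circles are estimates, grey bars 95% intervals and blue lines family medians; the filled circle is Snrpb2, the member called by limma, at 1.07, and all 12 Snrp genes lie to the right of 0.

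Family medians were near 0 except in the Snrp genes. All 12 Snrp genes had positive log2 changes, with a median of 0.41 and a range from 0.04 to 1.07, while 48.7% of all tested genes were positive. The 20 hnRNP genes had a median of 0.04 (12 positive), the 11 SR genes 0.11 (8 positive), the 9 Sf3 genes 0.03 (5 positive) and the 13 Prpf genes -0.02 (6 positive). The 34 snRNP genes taken as 1 family had a median of 0.07 and 23 positive changes, so the Snrp genes were set against Sf3 and Prpf genes near 0. These are descriptions of the families, without a test of the difference between them. The family counts below stand beside 3.08% of all tested genes called by limma, 4.14% by edgeR and 4.37% by DESeq2. An unadjusted p under 0.05 in limma was reached by 19.3% of all tested genes.

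The Snrp deviations were uneven among the libraries of a group. For each library the median over the Snrp genes of the deviation from each gene's mean was 0.03, -0.43 and -0.14 on the log2 scale in controls 1, 2 and 3, and 0.09, 0.50 and 0.02 in MCAO 1, 2 and 3. MCAO 3 thus lay at the level of control 1, and the lowest and the highest values belonged to control 2 and MCAO 2, the shallowest libraries. Without MCAO 2 the Snrp median was 0.24 with 10 of 12 genes positive, and without both control 2 and MCAO 2 it was 0.18 with 9 positive. With both left out it was close to the medians of the Sf3 genes (0.16) and the hnRNP genes (0.14). The hnRNP deviations were 0.02, 0.05 and -0.14 in controls and 0.10, 0.03 and 0.01 after MCAO, so these groups overlapped as well. For the SR genes control 2 was again the lowest library, at -0.17 against 0.15 and 0.11 in the other controls and 0.05, 0.09 and 0.06 after MCAO. Without control 2 the SR median turned from 0.11 to -0.07, with 4 of 11 genes positive.

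Control 2 and MCAO 2 were also the lowest and highest libraries in the genes of ribosomal proteins and of respiratory complex I, but not of the proteasome. These families were chosen after the Snrp values were seen, as families taken to have mostly short messages. The 76 genes of cytosolic ribosomal proteins had a median log2 change of 0.58, all 76 positive and 23 risen, with deviations of -0.25, -0.44 and -0.15 in controls and 0.25, 0.51 and 0.08 after MCAO. The 36 Nduf genes of respiratory complex I had a median of 0.41 (33 positive, 1 risen), with control 2 lowest at -0.37 and MCAO 2 highest at 0.44. The 36 proteasome genes named Psm had a median of 0.26 (34 positive, 2 risen), with control 3 lowest at -0.17 and MCAO 3 highest at 0.20. The Snrp median lay within the range of these 3 medians. Transcript lengths were not used here, and their part in the Snrp values was not tested.

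**Figure D2:**
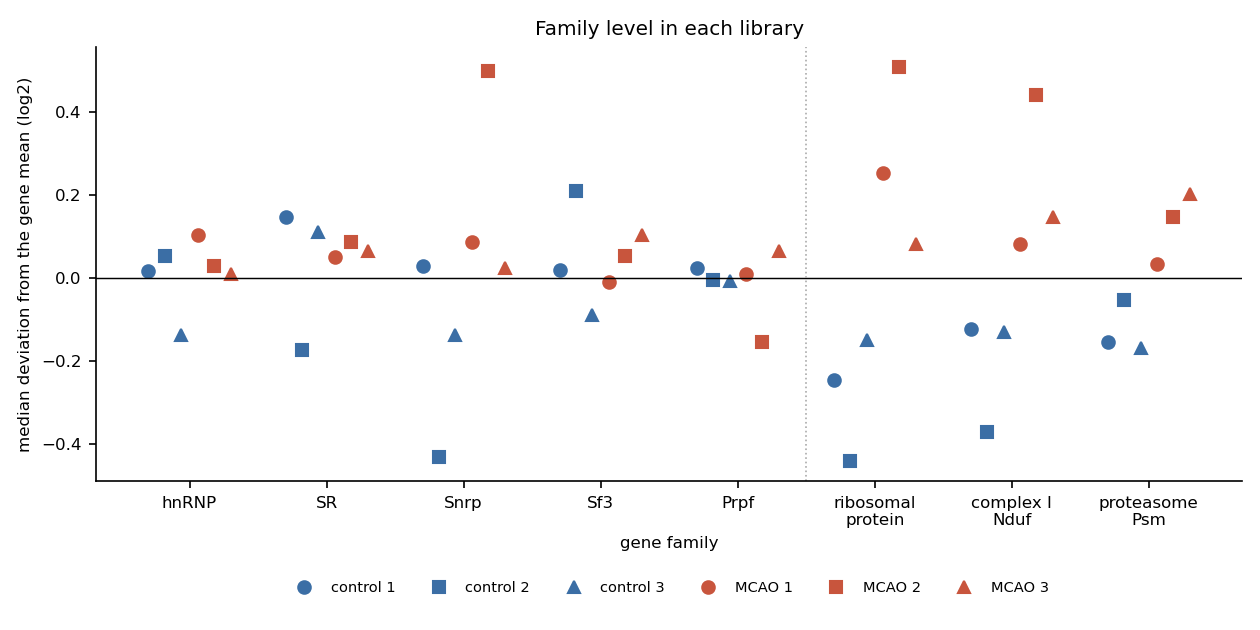
Median deviation of each gene family in each library (vertical axis, log2 scale, each gene centred on its mean over the 6 libraries), for 5 splicing families left of the dotted line and 3 comparison families right of it. Blue marks are controls and red marks MCAO animals; control 2 is lowest and MCAO 2 highest in the Snrp, ribosomal protein and Nduf families, at -0.43 and 0.50 in the Snrp genes.

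Snrpb2 encodes the B'' protein of the U2 particle, which binds its RNA (chromosome 2, 143063069 to 143072052, build GRCm38). It stood at 39.4, 26.6 and 28.7 scaled reads in controls 1, 2 and 3 and at 73.0, 65.3 and 61.9 in MCAO 1, 2 and 3. The lowest MCAO library lay well above the highest control, and the shallow libraries did not stand apart from the others of their group. The control mean was 31.6 ± 6.88 and the MCAO mean 66.7 ± 5.64 (SD, n = 3 in either group), a 2.11-fold difference with a log2 change of 1.07 (SE 0.26, 95% interval 0.52 to 1.63, limma adjusted p = 0.0396). These values rest on 137, 15 and 19 reads in the controls and on 124, 21 and 93 reads after MCAO. Snrpb2 was also called by edgeR (adjusted p = 0.0297) and DESeq2 (0.0423) on recovered reads. The Snrpb2 log2 change was not called with any 1 of the 6 libraries left out (adjusted p 0.0519 to 0.115, log2 change 0.96 to 1.24), nor with quantile normalisation (0.0501), no intensity trend (0.0622) or both shallow libraries left out (0.0606). Over its alternatives the adjusted p ranged from 0.0259 to 0.115. With 1 library left out, calls over all tested genes also fell, from 387 to between 144 and 304.

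The partner of the B'' protein in the U2 particle is the A' protein, encoded by Snrpa1. Snrpa1 was at 76.8, 51.4 and 72.4 scaled reads in controls and at 65.9, 93.3 and 55.3 after MCAO, so the groups overlapped (log2 change 0.08, SE 0.25). Within each library the ratio of Snrpb2 to Snrpa1 was 0.513, 0.517 and 0.396 in controls and 1.11, 0.700 and 1.12 after MCAO. The ratio was higher in every MCAO library than in any control; both genes were measured in the same libraries, so a shared scale factor does not enter it. This ratio was picked after the values were seen and was not tested. Snrpa encodes the A protein of the U1 particle, a close relative of the B'' protein, and was at 102, 55.0 and 63.4 in controls and 82.4, 128 and 77.9 after MCAO (0.40, SE 0.27). Snrpc, for the C protein of the U1 particle, was at 40.3, 28.4 and 24.1 in controls and 35.3, 68.4 and 28.6 after MCAO (0.43, SE 0.35), and its high value came from 22 reads in MCAO 2. Neither U1 gene parted the groups.

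Promoter sequence was set beside these values because the Snrp genes lay together on 1 side of 0. RefSeq windows of the 250 bases before the gene start (GRCm38.p6) matched 57 of the 65 members and 9367 of the tested genes, and 3 of them are shown: Snrpb2, the gene that rose; Snrpf, the Snrp gene with the next change in size, which was not called; and Prpf8, whose MCAO values lay below all controls. Capitals mark matches on either strand to the CCAAT box (CCAAT), the GC box (GGGCGG) and the ETS core (CCGGAAG). All are written from 5′ to 3′ on the strand of the gene.
Snrpb2, chr2:143062819-143063068, plus strand: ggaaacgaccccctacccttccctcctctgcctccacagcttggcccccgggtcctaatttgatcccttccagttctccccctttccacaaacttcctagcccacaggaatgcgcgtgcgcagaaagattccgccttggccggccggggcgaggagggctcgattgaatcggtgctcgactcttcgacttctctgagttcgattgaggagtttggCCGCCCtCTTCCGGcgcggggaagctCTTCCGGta
Snrpf, chr10:93589659-93589908, minus strand: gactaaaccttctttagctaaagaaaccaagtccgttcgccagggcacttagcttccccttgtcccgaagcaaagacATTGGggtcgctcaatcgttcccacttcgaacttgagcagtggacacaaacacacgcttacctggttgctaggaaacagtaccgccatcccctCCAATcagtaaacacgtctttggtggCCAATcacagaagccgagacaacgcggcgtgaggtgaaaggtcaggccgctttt
Prpf8, chr11:75486527-75486776, plus strand: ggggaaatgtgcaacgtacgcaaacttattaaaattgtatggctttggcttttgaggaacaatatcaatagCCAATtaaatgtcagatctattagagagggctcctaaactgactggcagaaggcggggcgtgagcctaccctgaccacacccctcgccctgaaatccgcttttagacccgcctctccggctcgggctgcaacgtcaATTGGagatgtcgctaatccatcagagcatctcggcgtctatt
The Snrpb2 window held the ETS core 2 times, 28 and 9 bases before the start, and a GC box. The Snrpf window held 3 CCAAT boxes and the Prpf8 window held 2, and neither held an ETS core, so none of the 3 motifs was common to the 3 windows. Among Snrp genes with a window 3 of 10 held the ETS core, among Sf3 genes 6 of 7, among Prpf genes 3 of 11, among SR genes 4 of 11 and among hnRNP genes 2 of 18. The core was found in 15.3% of tested genes with a window and in 6.91% of all windows of the table. The CCAAT box was found in 13 of 18 hnRNP genes, 4 of 10 Snrp genes and 3 of 11 SR genes, against 40.55% of tested genes. A TATA box (TATAAA) was found in 6 of the 57 members and 7.48% of tested genes. These matches describe the letters of the windows and not bound sites.

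Genes of the Sm ring, the collar of proteins around the small nuclear RNA, had positive log2 changes throughout, but limma called 0 of the 8 with Snrpn counted among them (2 at an unadjusted p under 0.05, 0 by edgeR, 0 by DESeq2). Snrpd2, for SmD2, was at 106, 65.6 and 103 scaled reads in controls and 152, 159 and 113 after MCAO (log2 change 0.64, SE 0.22, adjusted p = 0.136). Snrpb, for SmB, was at 143, 163 and 175 in controls and 197, 264 and 199 after MCAO (0.44, SE 0.17, adjusted p = 0.178). In both genes every MCAO library lay above every control, by a narrow margin for Snrpd2, whose MCAO 3 was close to control 1. Snrpf, for SmF, was at 27.1, 5.32 and 19.6 in controls and 34.7, 21.8 and 37.3 after MCAO (1.03, SE 0.51, adjusted p = 0.284). The Snrpf log2 change had a 95% interval from -0.06 to 2.12, and control 2 and MCAO 2 held only 3 and 7 reads. Without control 2 it was 0.39, and with any other 1 library left out it was at most 1.46. Its promoter window is the one shown above with 3 CCAAT boxes. Snrpd3, for SmD3, was at 125, 88.7 and 155 in controls and 128, 149 and 97.2 after MCAO (log2 change 0.04, SE 0.23). The Snrpd3 log2 change was negative in 6 of 19 alternatives. Among them were the fits without control 2 (-0.18), without MCAO 2 (-0.10), without both (-0.32) and edgeR (-0.020). The remaining ring genes Snrpd1, Snrpe and Snrpg had changes of 0.37, 0.54 and 0.37, with overlapping groups.

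Snrpn encodes SmN, a close relative of SmB that is abundant in brain and takes its place in the Sm ring, and lies in an imprinted region (chromosome 7, 59982495 to 60450177). It was at 1201, 1314 and 1209 scaled reads in controls and at 1598, 1428 and 1165 after MCAO. MCAO 3 was below every control, so the groups overlapped, and the log2 change was 0.16 (SE 0.15, 95% interval -0.17 to 0.49, adjusted p = 0.609). The ratio of Snrpn to Snrpb, whose size also reflects the lengths of the messages, was 8.38, 8.05 and 6.91 in controls and 8.11, 5.40 and 5.85 after MCAO. MCAO 1 lay within the range of controls and the other MCAO libraries below it. The coding sequences of these genes are closely alike, and the annotated span of Snrpn also holds Snurf and Snhg14. The sources used here do not give how shared reads were assigned, so the split between these genes is uncertain.

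**Figure D3:**
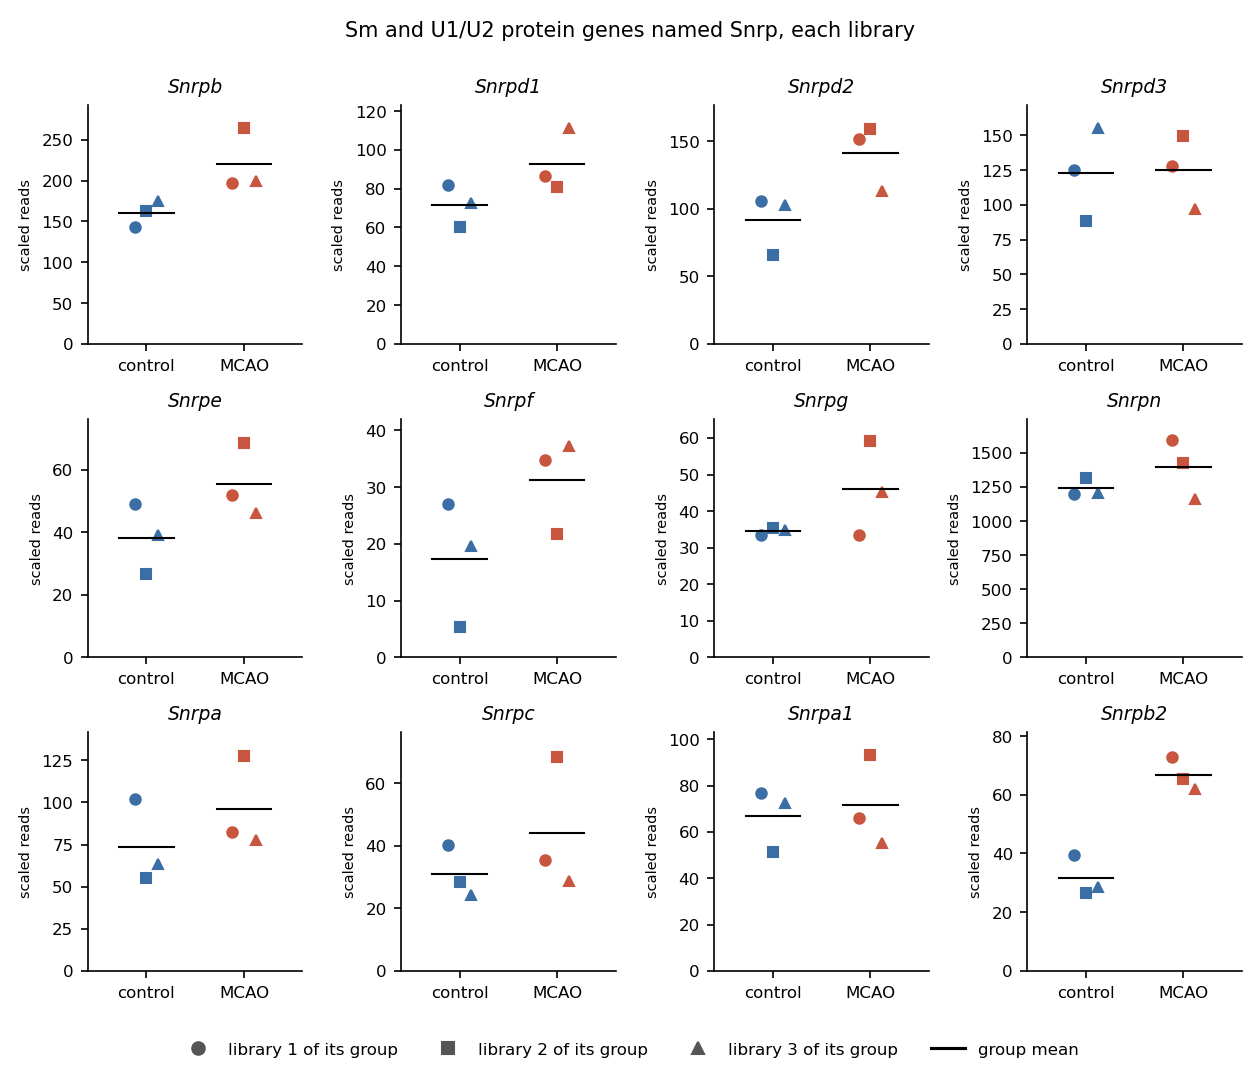
Scaled reads (vertical axes, each starting at 0) of the 12 Snrp genes in each control (blue) and MCAO (red) library, with marker shape for the library number and a line for the group mean. The groups do not overlap in Snrpb, Snrpd2 and Snrpb2, and the red squares of MCAO 2 are highest in Snrpb, Snrpd2, Snrpe, Snrpg, Snrpa, Snrpc and Snrpa1.

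The Sf3 genes, for the SF3a and SF3b complexes that hold the U2 particle at the branch point, had log2 changes from -0.29 to 0.39 (limma called 0 of 9, 0 at an unadjusted p under 0.05, 0 by edgeR, 0 by DESeq2). Sf3b1, the large scaffold of SF3b, was at 353, 493 and 392 scaled reads in controls and 463, 451 and 392 after MCAO (0.09, SE 0.16, 95% interval -0.25 to 0.43). Sf3b2 was at 558, 477 and 593 in controls and 516, 631 and 544 after MCAO (0.06, SE 0.15). The means of Sf3b3 were 190.2 ± 47.5 and 190.3 ± 16.0 (SD, n = 3 each), with control 2 highest at 243. In all 3 genes the MCAO libraries lay inside or beside the range of controls. Sf3a1 was at 195, 163 and 149 in controls and 144, 165 and 143 after MCAO (-0.16, SE 0.17). Sf3b4, named after its values were seen, was the Sf3 gene whose groups did not overlap, at 78.0, 53.2 and 77.0 in controls and 99.4, 93.3 and 78.6 after MCAO (0.39, SE 0.22, adjusted p = 0.357), with MCAO 3 and control 1 almost level.

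The Prpf genes had a median change near 0. Limma called 0 of the 13 (1 at an unadjusted p under 0.05, 0 by edgeR, 0 by DESeq2). Prpf8, the large protein at the catalytic centre of the spliceosome (chromosome 11, 75486777 to 75509447), was at 513, 772 and 515 scaled reads in controls and 398, 389 and 482 after MCAO. Every MCAO library lay below every control, with MCAO 3 close to the lower controls, and the log2 change was -0.48 (SE 0.18, 95% interval -0.86 to -0.11, adjusted p = 0.154). Control 2 was far above the other controls, and without it the change was -0.29 (adjusted p = 0.340; over all alternatives 0.139 to 0.401). Prpf3, a tri-snRNP protein, was at 24.5, 17.7 and 34.7 in controls and 27.1, 9.33 and 24.6 after MCAO, and its low value came from 3 reads in MCAO 2. The Prpf3 log2 change of -0.40 (SE 0.45) was 0.06 without MCAO 2.

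Prpf19, a ubiquitin ligase of the activated spliceosome, was at 613, 704 and 646 scaled reads in controls and 589, 672 and 679 after MCAO (log2 change -0.02, 95% interval -0.32 to 0.28). Prpf6, a tri-snRNP bridging protein, was at 119, 177 and 122 in controls and 101, 118 and 168 after MCAO (-0.12, SE 0.22), so that each group held 1 high library. Prpf18, a factor of the later catalytic step, was at 123, 97.6 and 104 in controls and 90.0, 121 and 118 after MCAO (0.01, SE 0.19). A further 7 Prpf genes had changes from -0.21 to 0.31 with overlapping groups.

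The hnRNP genes with the highest log2 changes were Hnrnpab, Hnrnpa2b1 and Hnrnpa1 of the A/B type, while Hnrnpa3 (0.05) and Hnrnpa0 (0.03) of the same type lay near the family median, and limma called 0 of the 20 hnRNP genes (2 at an unadjusted p under 0.05, 0 by edgeR, 0 by DESeq2). Hnrnpa2b1, for the A2 and B1 proteins that bind mRNAs carried into cell processes (chromosome 6, 51460434 to 51470048), was at 1036, 830 and 922 scaled reads in controls and 1306, 1160.1 and 1319 after MCAO. All MCAO libraries lay above all controls. The control mean was 929.5 ± 103 and the MCAO mean 1262 ± 88.4 (SD, n = 3 in either group), and the log2 change 0.44 (SE 0.15, 95% interval 0.13 to 0.76, adjusted p = 0.116). Hnrnpab (chromosome 11, 51600100 to 51606881), for an A/B-type protein that binds mRNA and DNA, was at 271, 202 and 219 in controls and 291, 289 and 372 after MCAO (0.46, SE 0.17, adjusted p = 0.155). The groups did not overlap here either, but control 1 was close to the lower MCAO libraries. Hnrnpa1, a splicing repressor and shuttling protein, was at 658, 711 and 690 in controls and 867, 1197 and 680 after MCAO (0.38, SE 0.18, adjusted p = 0.278). MCAO 3 was at the level of the controls, so the groups overlapped. The Hnrnpa1 log2 change was 0.16 without MCAO 2 and 0.57 without MCAO 3. The genome holds processed copies of Hnrnpa1, and the assignment of reads among copies is likewise unknown.

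Hnrnpc, for the C proteins that bind uridine tracts in nascent RNA, was named after its values were seen, as the remaining hnRNP gene with all MCAO libraries higher, at 371, 328 and 385 in controls and 434, 395 and 438 after MCAO (0.23, SE 0.14). Hnrnpd, for AUF1, a regulator of the decay of AU-rich mRNAs, was the hnRNP gene with all MCAO libraries lower. It was at 492, 527 and 449.7 in controls and 445, 432 and 378 after MCAO (-0.23, SE 0.14, adjusted p = 0.412), with MCAO 1 and control 3 almost level. Hnrnpk, for a protein that binds cytidine-rich RNA, was at 819, 866 and 818 in controls and 744, 694 and 847 after MCAO (-0.14, SE 0.14). Hnrnpul2, of the U family that binds RNA and chromatin, was at 834, 1116 and 705 in controls and 809.5, 986 and 889.8 after MCAO (0.04, SE 0.17), with control 2 above every other library. Hnrnpll, a regulator of exon choice in immune and neural cells, was at 79.1, 76.3 and 98.1 in controls and 86.5, 65.3 and 81.9 after MCAO (-0.12, SE 0.21). In the latter 3 genes the groups overlapped. All 20 hnRNP genes had log2 changes between -0.23 and 0.46, and no 95% interval among them reached beyond -0.57 or 0.82.

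**Figure D4:**
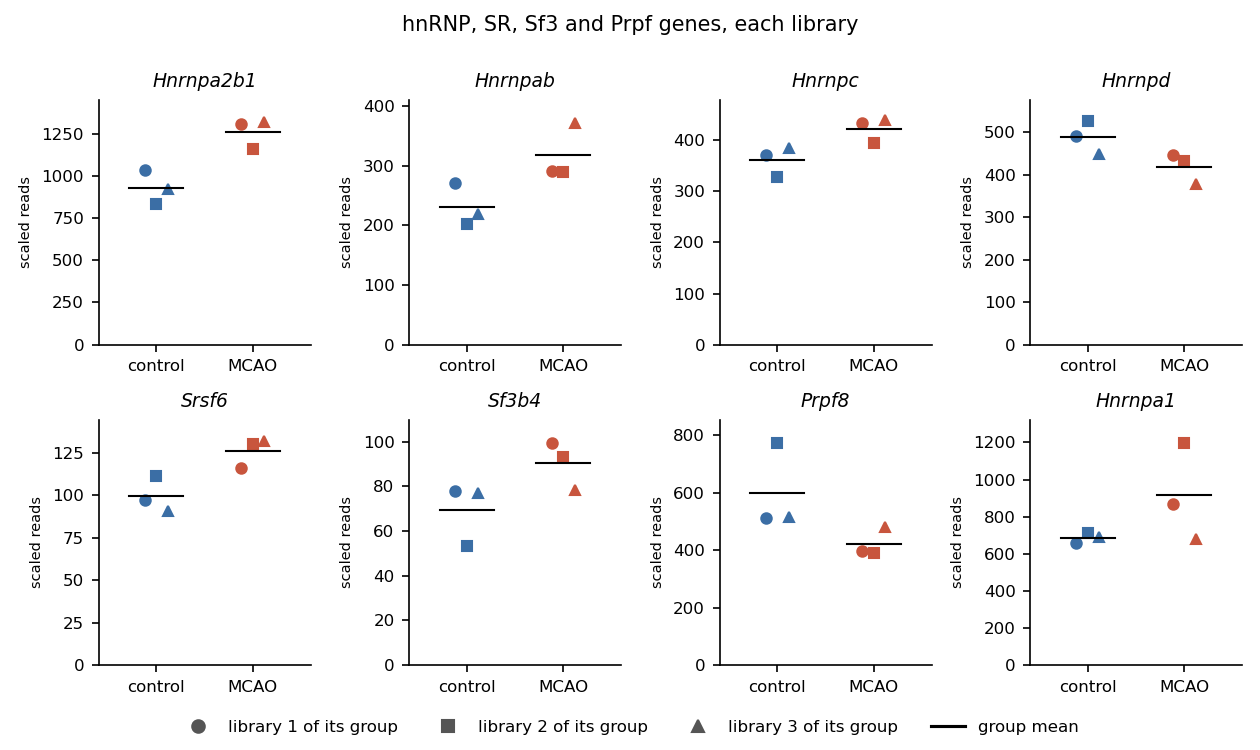
Scaled reads (vertical axes, each starting at 0) of 8 hnRNP, SR, Sf3 and Prpf genes in each control (blue) and MCAO (red) library, with marker shape for the library number and a line for the group mean. All panels but Hnrnpa1 are the members outside the Snrp group whose groups do not overlap, higher after MCAO in Hnrnpa2b1, Hnrnpab, Hnrnpc, Srsf6 and Sf3b4 and lower in Hnrnpd and Prpf8.

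The SR genes, like the Sf3 genes, held 0 members at an unadjusted p under 0.05, and limma, edgeR and DESeq2 each called 0 of the 11. Srsf6, a regulator of exon inclusion, was at 97.3, 112 and 90.5 scaled reads in controls and 116, 131 and 132 after MCAO (log2 change 0.34, SE 0.18, adjusted p = 0.328). It was the 1 SR gene whose groups did not overlap, with control 2 and MCAO 1 close together. Srsf1, the founding SR protein, was at 191, 195 and 214 in controls and 219, 180.4 and 210.5 after MCAO, a change of 0.02 with a 95% interval from -0.32 to 0.35. Srsf3, the smallest SR protein and an adaptor of mRNA export, was at 315, 261 and 317 in controls and 285, 267 and 264 after MCAO (-0.12, SE 0.15). For both genes the MCAO values lay within or near the range of controls. Srsf10, which acts as a repressor when dephosphorylated, was at 118, 95.8 and 119 in controls and 101, 84.0 and 89.3 after MCAO (-0.28, SE 0.19, adjusted p = 0.458).

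Control 2 was the lowest control in Srsf2, Srsf3, Srsf4, Srsf5, Srsf7, Srsf10, Srsf11 and Srsf12. It was the highest control in Srsf6 and the middle one in Srsf1 and Srsf9. Srsf5 was at 257, 159.7 and 261 in controls and 277, 264 and 187 after MCAO (0.12, SE 0.21), and Srsf4 was at 166, 103 and 158 in controls and 147, 162 and 175 after MCAO (0.20, SE 0.20). Without control 2 the changes were -0.11 and -0.01. Srsf9 was at 63.9, 69.2 and 84.5 in controls and 91.8, 80.9 and 81.9 after MCAO (0.23, SE 0.21), and its groups overlapped through control 3. Srsf12, a low member, was at 39.4, 24.8 and 25.7 in controls and 21.8, 37.3 and 19.98 after MCAO (-0.20, SE 0.36), with 12 to 137 reads per library. Its 95% interval from -0.96 to 0.56 was the widest of the family. The remaining 3 SR genes, Srsf2, Srsf7 and Srsf11, had overlapping groups too.

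**Figure D5:**
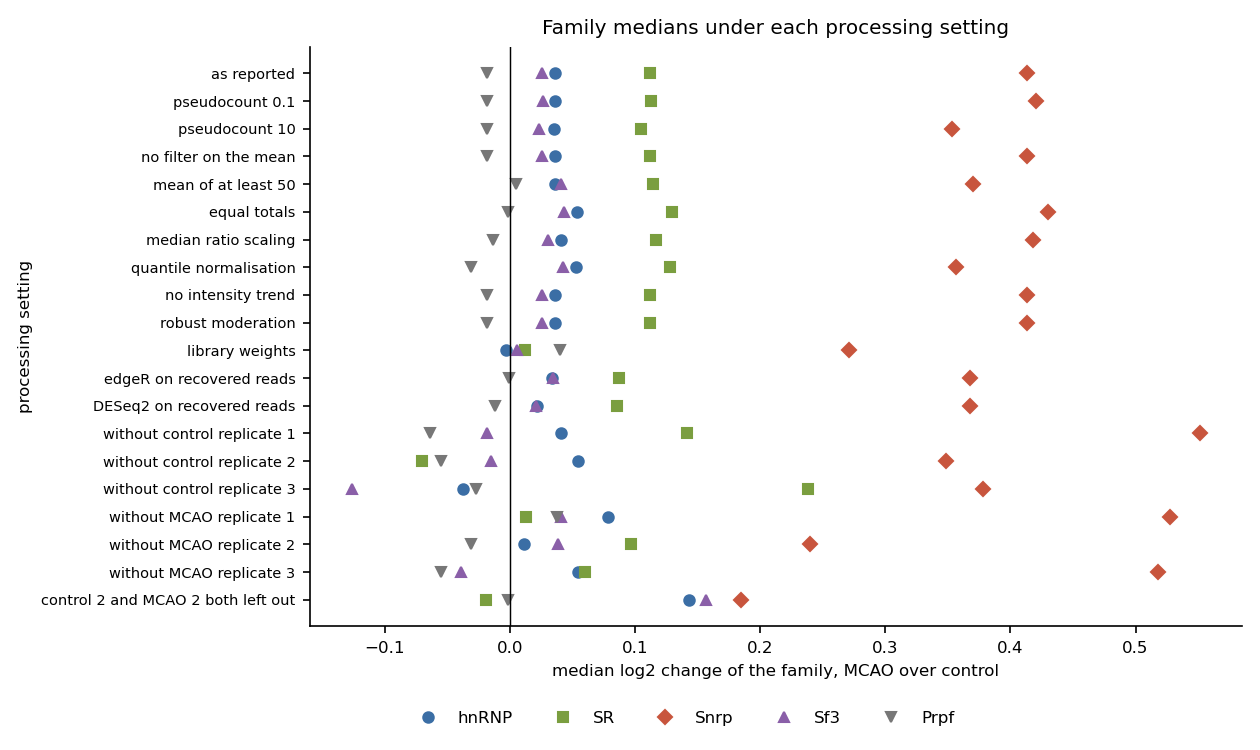
Median log2 change of each splicing family (horizontal axis) under each processing setting (vertical axis), with 1 symbol per family. The Snrp median is the highest of the 5 families in each row, between 0.18 and 0.55, while the SR median changes sign when control 2 is left out. With control 2 and MCAO 2 both left out, the Snrp median of 0.18 is close to Sf3 at 0.16 and hnRNP at 0.14.

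Among splicing genes outside the naming rule calls were likewise few, while their classes lay on both sides of 0. Of 131 genes on a list of other splicing factors 123 were tested, and limma called 0 of these, against 3.08% of all tested genes. An unadjusted p under 0.05 was reached by 14 of the 123, against 19.3%. EdgeR called 0 and DESeq2 1, against 4.14% and 4.37%. Groups did not overlap in 17 with MCAO higher and in 12 with MCAO lower, against 12.4% and 12.5% of all tested genes. The 123 genes had a median log2 change of 0.04 with 66 positive, where 48.7% of all tested genes were positive. The 7 tested LSm genes, for relatives of the Sm proteins, were all positive with a median of 0.40, and 6 of the 7 genes named Snrnp were positive with a median of 0.33. Lsm2, of the U6 ring, stood at 1.15 (SE 0.55, adjusted p = 0.271) and Snrnp25, a protein of the minor spliceosome, at 0.94 (SE 0.37, adjusted p = 0.184). The LSm and Snrnp genes lay on the same side as the Snrp genes, but so did other classes of the list. The 8 genes of splice site recognition were all positive, with a median of 0.22. Medians were 0.11 in 8 exon junction genes (6 positive) and 0.10 in 16 hnRNP-like genes (11 positive). The 25 catalytic and recycling factors had a median of 0.02 (13 positive). In contrast, 16 genes of SR-related proteins had a median of -0.20, with 11 negative. The 20 tested tissue regulators of splicing, among them the Celf, Rbfox, Mbnl, Nova and Elavl genes, had a median of -0.14 with 19 negative. Celf1, a regulator of exon choice and mRNA decay, was at -0.56 (SE 0.16, limma adjusted p = 0.0689; DESeq2 0.0408). In the same libraries all 6 striatal neuron markers fell, while the 10 general neuron markers had a median of -0.01, and their part in the tissue regulators was not tested.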

How the data were processed

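RNA from RiboTag precipitates of 6 mice was sequenced as polyA libraries, 1 column per animal; the labels name 2 precipitations per animal, pooled, and 2 technical replicates. The authors deposited a normalised signal of 12968 genes, found from its values to be read counts over a factor common to each library, with values under 1 set to 1. The submitters' processing notes list mm10, CASAVA 1.8, HISAT2, Partek 6.6, R 3.3.1 and DESeq2 without roles; the sources used here do not give counting, strand setting or gene filter. Divided by its column's step, a value was whole within 0.1 read in 99.95% of cases above the floor in control 1 and 100% in the others. limma 3.58.1 (R 4.3.3; empirical Bayes with intensity trend, two-sided) was fitted to log2(signal + 1) of 12549 genes, those with mean signal 10 or higher, without covariates, and Benjamini-Hochberg adjustment covered all of them. edgeR 4.0.16 and DESeq2 1.42.0 were run on recovered reads as alternatives, beside other pseudocounts, filters, scalings and moderation and each library left out; the fit was tested on simulated data. Named members are those called, the 4 highest by mean in each of 5 families, the 3 most positive and 3 most negative changes in the hnRNP, SR and snRNP genes, and 7 fixed genes; 1 named member is not reported here. Members and lists were chosen with earlier results of these data known. Replicates are separate animals, per the labels. Spans of 23 members overlap another annotated gene, whose reads cannot be separated without strand. Coordinates are from RefSeq GRCm38.p6, in which all 65 symbols matched.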

Additional observations from a re-analysis of the deposited data

How the results depend on the processing

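Of 31 named members, 17 kept 1 sign over the 19 alternatives and 30 were called under none of them. Snrpb2 kept its sign in all but was not called with quantile normalisation (log2 change 0.99), no intensity trend, any 1 library left out, or both shallow libraries left out (0.98). The count of called members, of snRNP and of Snrp genes was then 0, as it was with a minimum mean of 50, where Snrpb2 was not tested and 7 Snrp genes were, all 7 positive. With 1 library left out that count was 0 throughout and the count of lower calls stayed 0. Calls over all tested genes fell as well, from 387 to between 144 and 304 with 1 library left out. They were 157 with no intensity trend, 393 with quantile normalisation and 559 with both shallow libraries left out. Medians with 1 library left out ranged from 0.24 to 0.55 in Snrp (10 to 12 positive), from -0.070 to 0.24 in SR (4 to 8 positive), from -0.13 to 0.041 in Sf3 (3 to 6 positive) and from -0.037 to 0.078 in hnRNP genes. The SR extremes came without control 2 and control 3, the low Sf3 median without control 3 and its low count without control 1. Without control 2 and MCAO 2 the median was 0.14 in hnRNP, 0.16 in Sf3 and -0.019 in SR genes (5 positive). The cause of these shifts was not tested. No scaling alternative moved the median of all genes by over 0.1. Depth limits the lowest members most: Snrpf, Prpf3 and Prpf39 had 3 to 7 reads in a shallow library. No paired analysis was possible because the libraries share no replicate number in the labels.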
